A study of Mus musculus with 12 samples.

Results

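The growth and angiogenic factors described here are 10 secreted ligands or hormones, Fgf7, Fgf2, Angpt1, Angpt2, Angptl4, Pdgfa, Pdgfb, Vegfc, Hgf and Hbegf, among 56748 genes in an RNA sequencing table of 4599 mouse melanoma cells. They were chosen by gene symbol, with Fgf7 as the lead, when their FPKM levels in the 4 groups of the study were already known. Their levels and differences are therefore given as a description, with no test. The set is joined by 144 other genes of the same pathways, in 11 lists, which hold no member of the set. Tests are given for the 71 of them that were expressed highly enough. These lists, too, were picked with earlier results of these data known.

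The 12 libraries fall into 4 groups of 3, all from the single cell line 4599 and with no drug, vector or genotype named in the labels. Met cells were isolated from melanoma that had spread to the lung, whereas DIF, PIF and TB cells were isolated from different parts of an orthotopic melanoma, that is, a tumour in the tissue where melanoma arises. What the abbreviations stand for is not stated, and neither is whether the 3 libraries of each group are separate animals. The p-values thus measure the spread between these libraries, which may be technical. All 4 groups were cultured on fibrillar collagen from bovine skin (1.7 mg/ml), first in 10% serum for 24 h and then in 1% serum for another 24 h. The values thus describe cultured cells and not cells in the tumour. Levels are in FPKM, sequenced fragments per kilobase of gene with a scale for each library, which allows genes to be compared per length. Read numbers rebuilt from the table came to 15.5 to 18.4 M per library.

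Growth factors of these families are ligands of receptor tyrosine kinases. FGFs bind FGF receptors together with heparan sulfate, and PDGFs bind PDGF receptors. VEGF-C binds VEGF receptors of lymphatic and blood endothelium, HGF the receptor encoded by the gene Met, and HB-EGF EGF receptors. Angiopoietins bind the receptor TIE2 on endothelium, where angiopoietin 1 is an agonist and angiopoietin 2 mostly an antagonist that loosens vessel walls. FGF7, also called keratinocyte growth factor, is made by mesenchymal cells such as dermal fibroblasts and acts on epithelial cells, and melanoma is known for its own production of FGF2.

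The factors differed widely in level. Pdgfa, a PDGF ligand, was the highest at a mean of 62.6 FPKM over the 12 libraries, followed by Hbegf at 19.3 FPKM. Fgf2, Angpt2, Fgf7 and Vegfc lay between 1.64 and 3.37 FPKM. Pdgfb had a mean of 0.459 FPKM, just under the mean of 0.5 FPKM that a gene needed to enter the statistical fit, and Angptl4, Hgf and Angpt1 were at or near 0. Thus 6 of the 10 members passed that filter, and Fgf7 did so mainly through its levels in Met and DIF cells. The plot of member levels by library shows the 7 that were measurable.

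**Figure D1:**
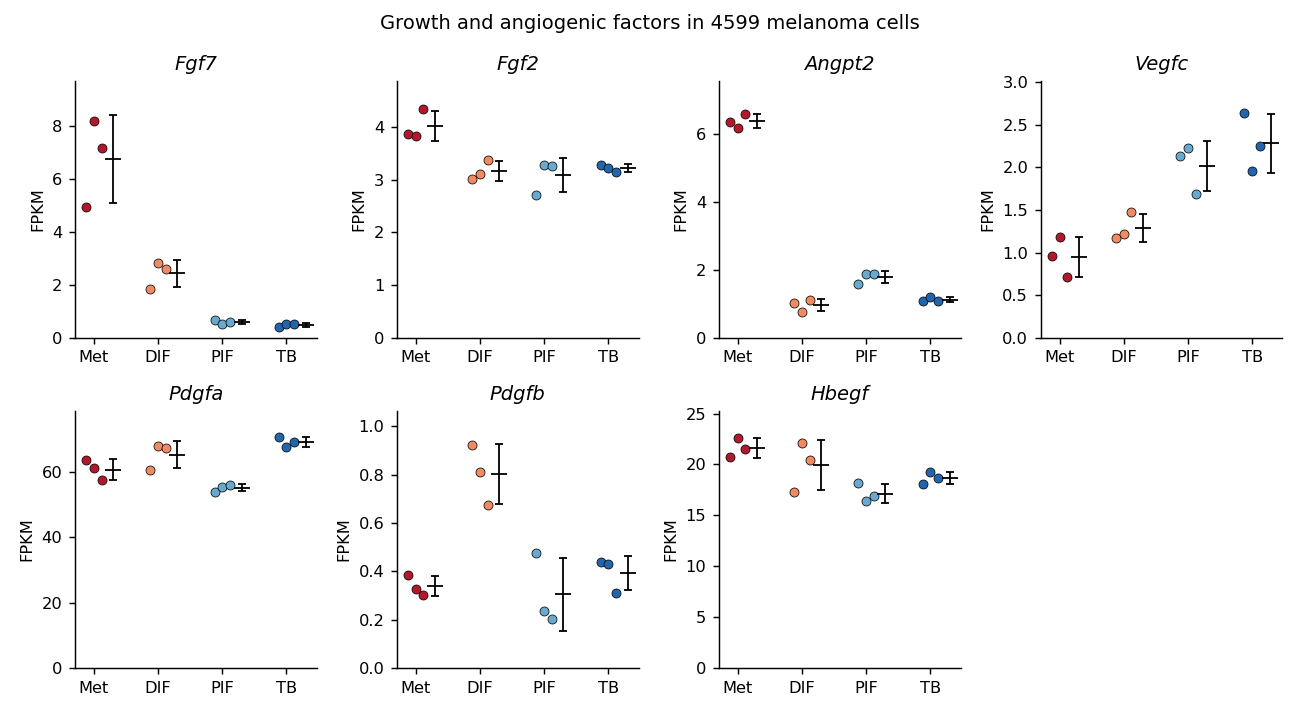
FPKM (vertical axis, from 0) of 7 factors in each library, as 1 point a library for Met, DIF, PIF and TB cells, with the group mean and SD (n = 3) as a bar beside the points. Fgf7 averages 6.74 FPKM in Met, 2.42 in DIF, 0.585 in PIF and 0.485 FPKM in TB cells, Angpt2 is high in Met cells, Vegfc is lowest in Met cells and Pdgfb is highest in DIF cells.

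The promoters of Fgf7 and Fgf2, both highest in Met cells, and of Vegfc, lowest in Met cells, are shown to let the start regions of factors with opposite order be compared. They run from 250 bases before to 50 bases after the RefSeq start, on the plus strand of RefSeq build GRCm38.p6. They lie at chr2:126034408-126034707 for Fgf7, chr3:37348403-37348702 for Fgf2 and chr8:54077282-54077581 for Vegfc. Capitals mark CAGAC, a short SMAD-binding motif, or GTCTG, its reverse complement.
Fgf7: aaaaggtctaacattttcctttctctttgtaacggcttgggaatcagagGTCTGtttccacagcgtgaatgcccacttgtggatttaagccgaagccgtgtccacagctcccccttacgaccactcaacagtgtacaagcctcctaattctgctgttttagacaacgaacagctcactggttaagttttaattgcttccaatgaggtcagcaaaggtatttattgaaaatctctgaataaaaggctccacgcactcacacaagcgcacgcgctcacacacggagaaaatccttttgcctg
Fgf2: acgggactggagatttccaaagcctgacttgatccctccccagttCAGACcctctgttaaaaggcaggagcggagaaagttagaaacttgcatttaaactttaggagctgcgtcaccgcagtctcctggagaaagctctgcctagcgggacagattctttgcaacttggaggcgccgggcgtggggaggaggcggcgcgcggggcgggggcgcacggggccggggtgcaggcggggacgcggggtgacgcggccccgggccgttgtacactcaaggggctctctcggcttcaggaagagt
Vegfc: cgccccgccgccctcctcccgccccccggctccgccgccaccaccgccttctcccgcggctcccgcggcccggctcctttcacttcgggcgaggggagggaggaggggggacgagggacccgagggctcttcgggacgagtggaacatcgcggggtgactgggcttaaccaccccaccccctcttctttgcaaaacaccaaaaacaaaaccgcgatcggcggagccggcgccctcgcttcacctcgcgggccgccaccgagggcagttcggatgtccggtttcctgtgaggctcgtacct
The Fgf7 promoter was the poorest of these in G and C, with 45.7% GC and 11 CpG dinucleotides, against 62.7% and 24 for Fgf2 and 70.3% and 35 for Vegfc. The median over the 32544 promoters of the table was 53.0% GC and 7 CpG. Both strands were searched for CAGAC, for the AP-1 motif TGANTCA, for the TEAD motif GGAATG, for the E-box CACGTG and for the hypoxia response core ACGTG, which is contained in the E-box. Of all promoters, 49.5% hold CAGAC, 7.8% the AP-1 motif, 14.6% the TEAD motif, 7.2% the E-box and 19.7% the hypoxia response core. Only CAGAC was found, with its first base at position -201 in Fgf7 and -205 in Fgf2 relative to the start, and none of the 5 stands in the Vegfc window. The table held promoters for 5 of the 10 members, namely these and those of Pdgfa and Hgf. Hgf, a gene at or near 0 FPKM, also had CAGAC in each of its listed promoters, and Pdgfa had it in none. With so common a motif and so few promoters, nothing is read from these matches. The part of the motif in the order of the groups was not tested.

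Fgf7 (ENSMUSG00000027208, chromosome 2, 125876578 to 125933105, plus strand) was the factor with the widest range. Coordinates are those of the deposited table, whose genome build is not stated. They do not match the GRCm38.p6 positions of the promoters, since the Fgf7 promoter would lie beyond the end of the gene. Gene and promoter positions are thus not to be combined. Fgf7 had 4.93, 8.17 and 7.14 FPKM in the Met libraries and 1.85, 2.81 and 2.61 FPKM in the DIF libraries. The PIF libraries had 0.667, 0.504 and 0.583 FPKM and the TB libraries 0.402, 0.534 and 0.519 FPKM. Every Met library thus lay above every DIF library, and every DIF library above every PIF and TB library, while the PIF and TB libraries overlapped. The means were 6.74 ± 1.66 FPKM in Met, 2.42 ± 0.509 in DIF, 0.585 ± 0.0818 in PIF and 0.485 ± 0.0720 in TB cells (SD, n = 3 each). The quotient of means was 13.9 for Met over TB, 4.99 for DIF over TB, 11.5 for Met over PIF and 2.78 for Met over DIF, against 1.21 for PIF over TB. As a difference of mean log2(FPKM + 1), Met cells stood 2.36 ± 0.19 and DIF cells 1.19 ± 0.14 above TB cells (± SE from the 6 libraries of a pair). Met cells stood 1.17 ± 0.23 above DIF cells, and this scale understates the change of low genes. In reads, the 3 libraries of a group summed to 1202 in Met, 422 in DIF, 98 in PIF and 83 in TB cells, so the order of the 2 low groups rests on few reads. In bulk samples, fewer cells that make a transcript and less transcript per cell cannot be told apart.

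For scale, the limma fit over the 12661 genes with a mean of at least 0.5 FPKM called 9.94% of them for Met against TB, 8.62% for DIF against TB and 14.1% for PIF against TB at a Benjamini-Hochberg adjusted p under 0.05. It called 17.6% for Met against PIF, 18.9% for DIF against PIF and 3.86% for Met against DIF, and the moderated F test over the 4 groups called 24.8%. These comparisons share libraries, and the factors were selected on the same values, so nothing is read from these shares for the factors themselves.

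The gene Fam227b lies across the whole of Fgf7 on the opposite strand, and without a known strand setting reads of such pairs cannot be told apart. Fam227b was listed with 10 reads over all 12 libraries, against 1202 reads of Fgf7 in the Met libraries alone.

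Fgf2 (ENSMUSG00000037225, chromosome 3, 37402495 to 37464257, plus strand), a mitogen for melanocytes and endothelial cells, differed less. Its levels were 3.88, 3.83 and 4.35 FPKM in the Met libraries and 3.01, 3.11 and 3.38 FPKM in the DIF libraries. It had 2.72, 3.28 and 3.27 FPKM in the PIF libraries and 3.28, 3.23 and 3.14 FPKM in the TB libraries. The 3 Met libraries were above all other libraries, and the DIF, PIF and TB libraries overlapped. The mean of 4.02 ± 0.288 FPKM in Met cells was 1.27 times that of DIF cells, 1.30 times that of PIF cells and 1.25 times that of TB cells. Nudt6, an antisense partner that overlaps 5199 bases of the Fgf2 locus in the table, was listed at 1.22 to 2.34 FPKM. Its means were 1.44 in Met, 1.78 in DIF, 2.14 in PIF and 1.95 FPKM in TB cells, so it was lowest in Met cells, where Fgf2 was highest. Its part in the Fgf2 values was not tested.

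The make-up of the FGF ligands differed between the groups. Of the summed FPKM of 22 FGF genes, Fgf7 took 51.4 ± 6.42% in Met and 31.4 ± 4.94% in DIF cells, against 8.37 ± 2.01% in PIF and 8.10 ± 1.10% in TB cells (SD, n = 3). It ranked first of the FGF genes in Met cells and second in DIF cells behind Fgf2, and was behind Fgf2, Fgf5 and Fgf1 in both other groups. Fgf2 took 31.3% in Met, 41.3% in DIF, 43.5% in PIF and 53.8% in TB cells. The sum itself was 13.0 ± 1.69 FPKM in Met, 7.67 ± 0.576 in DIF, 7.10 ± 0.696 in PIF and 5.98 ± 0.270 FPKM in TB cells. Fgf5, a ligand known from the hair cycle, took 5.77% in Met, 6.38% in DIF, 31.1% in PIF and 14.6% in TB cells and ranked second in PIF cells. PIF and TB cells thus had close shares of Fgf7 and differed in those of Fgf5 and Fgf2.

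**Figure D2:**
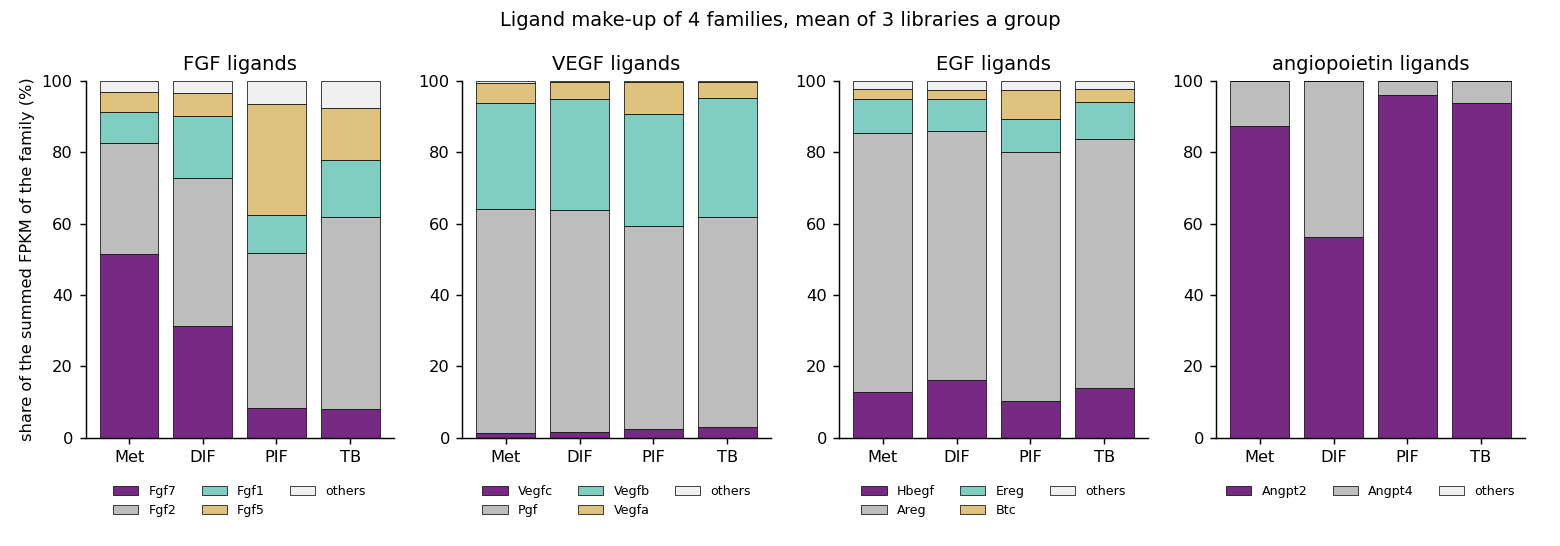
Share (%, vertical axis) of each named ligand in the summed FPKM of its family, as the mean of 3 libraries, for Met, DIF, PIF and TB cells; the factors of the set are drawn at the bottom of each bar. Fgf7 takes 51.4% of the FGF ligands in Met cells and 8.10% in TB cells. Vegfc takes 1.43% of the VEGF ligands in Met cells and 2.85% in TB cells. Hbegf takes 10.4% of the EGF ligands in PIF cells and 16.2% in DIF cells, and is second to Areg in each group. Angpt2 takes 56.4% in DIF cells where Angpt4 takes the rest.

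The other FGF ligands were mostly silent, and only Fgf1 and Fgf5 of 20 had a mean that allowed a test. Fgf5 had 2.23 ± 0.479 FPKM in PIF cells, against 0.873 ± 0.145 FPKM in TB cells, and rose in PIF against TB cells (log2 difference 0.78 ± 0.12 SE, limma adjusted p = 0.002). It fell in DIF against PIF cells by 1.10 on the same scale (adjusted p = 6.6e-05), so its order was not that of Fgf7. Fgf1, which binds all FGF receptors, was at 1.09 FPKM in Met, 1.32 in DIF, 0.753 in PIF and 0.948 FPKM in TB cells. It rose in DIF against PIF cells (adjusted p = 0.012, and 0.051 without DIF replicate 1).

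The receptor through which FGF7 is known to act was not detected in these cells. Fgfr2, whose epithelial splice form is the receptor of FGF7, had 0 reads in all 12 libraries, where 3 reads would have been 0.0158 to 0.0185 FPKM. Fgfr4 had 2 reads in all. The receptors that were expressed were Fgfr3, Fgfr1 and the decoy-like Fgfrl1, which has no kinase domain. Fgfr3 had 10.6 ± 0.841 FPKM in Met, 7.70 ± 0.763 in DIF, 4.35 ± 0.322 in PIF and 5.54 ± 0.321 FPKM in TB cells. It rose in Met (0.83 ± 0.081, adjusted p = 5.4e-05) and DIF (0.41 ± 0.081, adjusted p = 0.0087) against TB cells and in Met against PIF cells (1.12 ± 0.081, adjusted p = 3.1e-06). Its higher level in Met than in DIF cells passed with all libraries (adjusted p = 0.015) but not without DIF replicate 1, DIF replicate 3 or Met replicate 1 (adjusted p of 0.054 to 0.057). Fgfr1 had 7.14 FPKM in Met, 7.88 in DIF, 5.60 in PIF and 4.91 FPKM in TB cells. It rose in DIF against TB cells (0.59 ± 0.10, adjusted p = 0.0039). For Met against TB cells the call (0.46 ± 0.10, adjusted p = 0.012) was lost without Met replicate 1 (0.052) or TB replicate 2 (0.058). Fgfrl1 was the most abundant of them, with 28.1 FPKM in Met, 36.0 in DIF, 25.6 in PIF and 28.1 FPKM in TB cells. It rose in DIF against PIF cells (0.48 ± 0.077, adjusted p = 0.00096).

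Of the 4 tested genes in the list of FGF receptors and binding proteins, 2 rose and 1 fell in Met against TB cells and 3 rose and 0 fell in DIF against TB cells. That is 75% of the list in each comparison, against 9.94% of all genes for Met and 8.62% for DIF. The list's median log2 difference was 0.23 in Met against -0.003 over all genes, and 0.38 in DIF against -0.001 over all genes. The 3 calls for Met became 1 without Met replicate 1 or TB replicate 2, since those of Fgfr1 and Fgfbp3 were lost, and the 3 for DIF became 2 at the lowest.

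FGF signalling also needs heparan sulfate, and 16 of 25 genes of that list could be tested. In Met against TB cells 3 rose and 0 fell, 18.8% against 9.94% of all genes, at a list median of 0.18 against -0.003 over all genes tested; without PIF replicate 2 there were 5 calls. In DIF against PIF cells 6 rose and 2 fell, 50% against 18.9% of all genes, at a median of 0.24 against 0.008. Ext1, a polymerase of the heparan sulfate chain, had 9.81 ± 0.321 FPKM in Met, 10.9 ± 0.437 in DIF, 5.48 ± 0.592 in PIF and 5.94 ± 0.190 FPKM in TB cells. It rose in Met (0.64 ± 0.069, adjusted p = 0.0001) and DIF (0.78 ± 0.069, adjusted p = 2.8e-05) against TB cells. Hs2st1, the 2-O-sulfotransferase, rose in the same comparisons (adjusted p = 0.00027 and 0.0018), with 33.5 FPKM in Met, 31.0 in DIF, 22.7 in PIF and 22.7 FPKM in TB cells. Hs6st1, a 6-O-sulfotransferase, and Glce, the epimerase, rose instead in PIF against TB cells, each by 0.82 (adjusted p = 0.00088 for Hs6st1 and 0.0018 for Glce). Fgfbp3, which releases FGFs from the matrix, averaged 1.82 FPKM in Met, 2.18 in DIF, 2.20 in PIF and 2.63 FPKM in TB cells. Its call in Met against TB cells (adjusted p = 0.02) was lost without Met replicate 1, Met replicate 3 or TB replicate 2 (0.054 to 0.093).

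Angpt2 (ENSMUSG00000031465, chromosome 8, 18740279 to 18791578, minus strand) was highest in Met cells and low in the other groups. It had 6.36, 6.18 and 6.58 FPKM in the Met libraries and 1.01, 0.752 and 1.12 FPKM in the DIF libraries. The PIF libraries had 1.59, 1.88 and 1.89 FPKM and the TB libraries 1.08, 1.21 and 1.08 FPKM. The Met libraries lay far above all others, the PIF libraries above those of DIF and TB cells, and the DIF and TB libraries overlapped. The mean of 6.38 ± 0.197 FPKM in Met cells was 6.65 times the 0.959 ± 0.187 FPKM of DIF cells, 3.57 times the 1.79 ± 0.169 FPKM of PIF cells and 5.68 times the 1.12 ± 0.0731 FPKM of TB cells. On the log2(FPKM + 1) scale Met cells stood 1.80 ± 0.036 and PIF cells 0.39 ± 0.059 above TB cells. For Angpt2 the DIF and TB libraries overlapped, whereas for Fgf7 every DIF library was above every TB library.

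Angpt2 lies inside Mcph1, which runs on the opposite strand and encodes a DNA damage response protein. Mcph1 stayed between 2.42 and 3.13 FPKM in the 12 libraries, with means of 2.89 in Met, 2.87 in DIF, 2.60 in PIF and 2.60 FPKM in TB cells.

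Angpt1 (ENSMUSG00000022309, chromosome 15, 42288119 to 42540373, minus strand), an agonist of TIE2, had 0 reads in each of the 12 libraries. A limit of 3 reads corresponds to 0.0314 to 0.0367 FPKM for a gene of its length, and such limits cover counting error only. Angpt4, another angiopoietin gene, averaged 0.922 FPKM in Met, 0.737 in DIF, 0.0734 in PIF and 0.0731 FPKM in TB cells. It had 228 reads in all and was under the filter for testing. Every Met and DIF library was above every PIF and TB library for Angpt4. Angptl4 (ENSMUSG00000002289, chromosome 17, 33992724 to 34000804, minus strand), a secreted inhibitor of lipoprotein lipase, was listed with 13 reads in all. They were spread over 8 libraries, summing to 4 in Met, 1 in DIF, 7 in PIF and 1 in TB cells. These numbers are too small to order the groups. Of the other genes of this family, Angptl2 was abundant, at 110.1 ± 1.43 FPKM in Met, 111.1 ± 6.56 in DIF, 92.3 ± 10.0 in PIF and 82.8 ± 5.97 FPKM in TB cells. It rose in Met against TB cells (0.41 ± 0.080, adjusted p = 0.0063) and in DIF against TB cells (0.42 ± 0.080, adjusted p = 0.007). Angptl6 rose in PIF against TB cells (0.83 ± 0.13, adjusted p = 0.0017), with 1.94 FPKM in Met, 1.72 in DIF, 3.30 in PIF and 1.39 FPKM in TB cells. The angiopoietin receptor Tek had 8 reads over the 12 libraries and its relative Tie1 had 3.

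**Figure D3:**
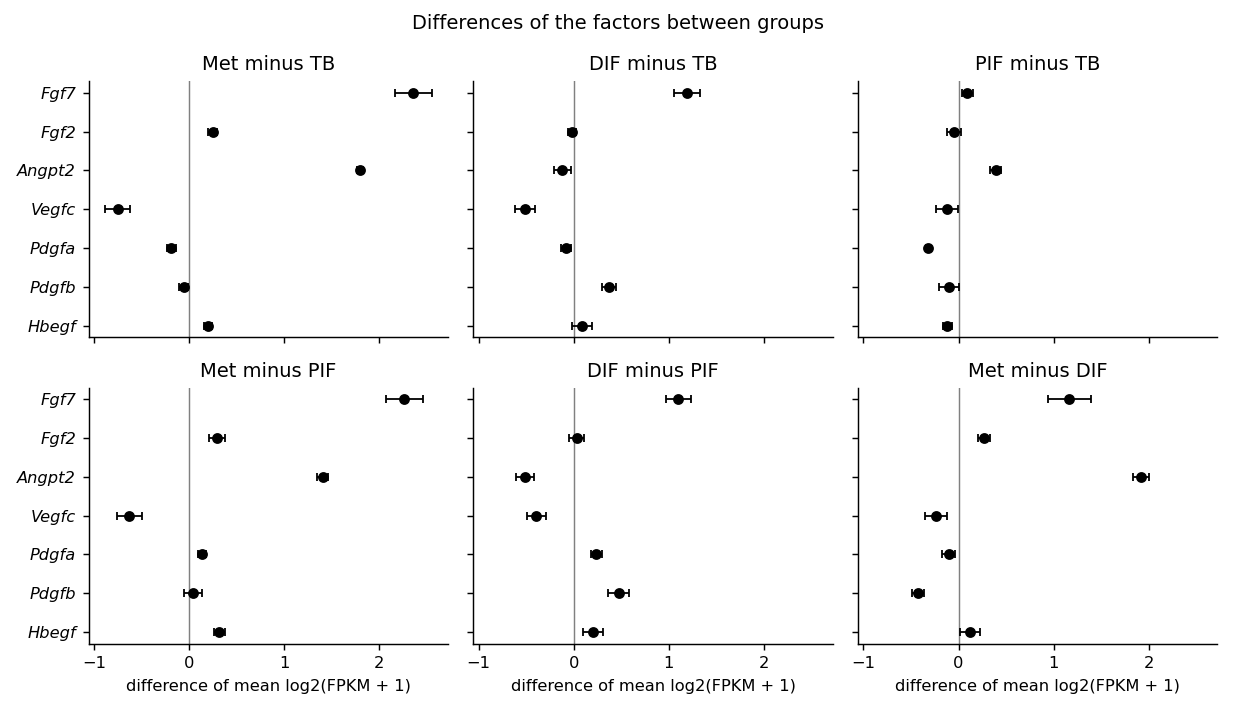
Difference of mean log2(FPKM + 1) (horizontal axis) of 7 factors for the 6 pairs of groups, with ± SE from the 6 libraries of the pair. Fgf7 lies to the right in each panel that sets Met or DIF cells against PIF or TB cells (2.36 for Met minus TB, 1.19 for DIF minus TB) and at 0.09 for PIF minus TB, and Angpt2 lies at 1.80, 1.41 and 1.92 in the panels with Met cells against TB, PIF and DIF cells.

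The ANGPTL4 list of lipase, PPAR and hypoxia genes had 8 of 17 genes tested. In Met against TB cells 1 rose and 2 fell, 37.5% against 9.94% of all genes, at a list median of -0.026. In Met against PIF cells 2 rose and 3 fell, 62.5% against 17.6% of all genes. These 5 calls became 3 without Met replicate 2, Met replicate 3 or PIF replicate 3, since those of Cpt1a and Hif1a were lost. Plin2, the lipid droplet coat protein, had 48.3 FPKM in Met, 49.5 in DIF, 74.9 in PIF and 61.5 FPKM in TB cells. It fell in Met (adjusted p = 0.0032) and DIF (adjusted p = 0.0083) and rose in PIF (adjusted p = 0.011) against TB cells. The hypoxia-induced genes Egln3 and Ndrg1 moved in opposite directions in Met against TB cells. Egln3, an oxygen-sensing prolyl hydroxylase, rose by 1.02 ± 0.14 (adjusted p = 0.00083). Its means were 1.73 FPKM in Met, 0.602 in DIF, 0.288 in PIF and 0.348 FPKM in TB cells. Ndrg1 fell by 0.65 on the log2 scale (adjusted p = 0.0021), with 4.02 FPKM in Met, 6.28 in DIF, 7.01 in PIF and 6.86 FPKM in TB cells.

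Pdgfa (ENSMUSG00000025856, chromosome 5, 138961769 to 138983125, minus strand) was abundant in each library and varied little. Its levels were 63.6, 61.1 and 57.4 FPKM in the Met libraries and 60.7, 68.1 and 67.2 FPKM in the DIF libraries. It had 54.0, 55.5 and 56.0 FPKM in the PIF libraries and 70.6, 67.8 and 69.2 FPKM in the TB libraries. The PIF libraries were lower than all others, and the Met and DIF libraries overlapped. The PIF mean of 55.2 ± 1.04 FPKM was 0.797 of the TB mean of 69.2 ± 1.42 FPKM, a log2 difference of -0.32 ± 0.023. The Met mean of 60.7 ± 3.13 FPKM was 0.877 of it. The DIF mean was 65.3 ± 4.05 FPKM, and its log2 difference to TB cells was -0.08 on the deposited scale but 0.003 under quantile normalization. The antisense long noncoding RNA 6330403L08Rik, which overlaps the locus, was listed at 1.81 to 5.02 FPKM.

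Pdgfb (ENSMUSG00000000489, chromosome 15, 79880075 to 79899178, minus strand), the PDGF that recruits pericytes to vessels, was low and stood out in DIF cells. It had 0.383, 0.328 and 0.302 FPKM in the Met libraries and 0.922, 0.811 and 0.674 FPKM in the DIF libraries. The PIF libraries had 0.475, 0.236 and 0.201 FPKM and the TB libraries 0.437, 0.431 and 0.311 FPKM. The 3 DIF libraries were above the other 9, which overlapped among themselves. The DIF mean of 0.802 ± 0.125 FPKM was 2.04 times that of TB cells and 2.64 times that of PIF cells, and the Met mean was 0.421 of the DIF mean. The reads behind these means summed to 77 in Met, 177 in DIF, 64 in PIF and 86 in TB cells.

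The other PDGF ligands, Pdgfc and Pdgfd, are activated outside the cell by proteases, and both could be tested. Pdgfc was, like Fgf7, higher in every Met and DIF library than in any PIF or TB library. Pdgfc had 4.26 ± 0.0425 FPKM in Met and 5.69 ± 0.764 in DIF cells, against 0.824 ± 0.161 FPKM in PIF and 1.14 ± 0.135 FPKM in TB cells. It rose in Met (1.30 ± 0.097, adjusted p = 6e-06) and in DIF (1.64 ± 0.097, adjusted p = 1.3e-06) against TB cells. Pdgfd rose in Met (0.70 ± 0.13, adjusted p = 0.0028) and DIF (0.84 ± 0.13, adjusted p = 0.00071) against PIF cells, with means of 1.19 in Met, 1.40 in DIF, 0.337 in PIF and 0.723 FPKM in TB cells. Pdgfc took 6.42% of the summed PDGF ligands in Met, 7.79% in DIF, 1.46% in PIF and 1.59% in TB cells, and Pdgfa took 91.3% in Met, 89.2% in DIF, 97.4% in PIF and 96.8% in TB cells. The receptors of these ligands were low. Pdgfra averaged 0.207 FPKM in Met, 0.159 in DIF, 0.384 in PIF and 0.181 in TB cells. Pdgfrb averaged 0.163 FPKM in Met, 0.483 in DIF, 0.0340 in PIF and 0.0931 in TB cells, both under the filter for testing.

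Vegfc (ENSMUSG00000031520, chromosome 8, 54530641 to 54640131, plus strand), the main growth factor of lymphatic vessels, was ordered opposite to Fgf7. Its levels were 0.965, 1.18 and 0.713 FPKM in the Met libraries and 1.18, 1.22 and 1.48 FPKM in the DIF libraries. It had 2.13, 2.23 and 1.68 FPKM in the PIF libraries and 2.64, 1.96 and 2.25 FPKM in the TB libraries. Every Met and DIF library lay below every PIF and TB library, with overlap within each of these pairs. The means were 0.953 ± 0.235 FPKM in Met, 1.29 ± 0.165 in DIF, 2.02 ± 0.291 in PIF and 2.28 ± 0.345 FPKM in TB cells. The Met mean was 0.417 and the DIF mean 0.566 of the TB mean. On the log2(FPKM + 1) scale Met cells stood at -0.75 ± 0.13 and DIF cells at -0.52 ± 0.11 relative to TB cells. The reads summed to 128 in Met, 169 in DIF, 256 in PIF and 295 in TB cells.

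Vegfc made up 1.43% of the summed VEGF ligands in Met, 1.67% in DIF, 2.32% in PIF and 2.85% in TB cells. The most abundant ligand was placenta growth factor, Pgf, which took 62.7% in Met, 62.3% in DIF, 56.9% in PIF and 58.9% in TB cells. With all libraries it was called in none of the 6 comparisons, at adjusted p of 0.051 to 0.84. A fall in Met against PIF cells was called without Met replicate 2 (limma adjusted p = 0.027) or PIF replicate 2 (0.032). The same fall was called with a filter at a mean of 2 FPKM (0.047). Of the 6 tested genes of the VEGF list, 3 rose and 0 fell in PIF against TB cells, 50% against 14.1% of all genes, at a median of 0.43 against 0 over all genes. In Met against TB cells 1 rose and 1 fell, 33.3% against 9.94% of all genes. Vegfa, the main angiogenic ligand, rose in PIF against TB cells (0.92 ± 0.083, adjusted p = 7.6e-05), with 3.87 FPKM in Met, 3.71 in DIF, 7.78 in PIF and 3.64 FPKM in TB cells. Vegfb was at 19.8 FPKM in Met, 24.0 in DIF, 27.4 in PIF and 26.7 FPKM in TB cells. Its call for Met against TB cells (adjusted p = 0.039) was lost without any 1 of 6 libraries, which were the 3 TB libraries, Met replicates 1 and 2 and DIF replicate 3 (0.054 to 0.14).

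VEGF-C is cut to its mature form with the help of the secreted protein CCBE1, and that gene differed in the opposite direction to Vegfc. Ccbe1 had 2.34 ± 0.268 FPKM in Met and 2.51 ± 0.161 in DIF cells, against 1.02 ± 0.0720 FPKM in PIF and 0.629 ± 0.0437 FPKM in TB cells. It rose in Met (1.03 ± 0.081, adjusted p = 8.8e-06) and DIF (1.11 ± 0.081, adjusted p = 6.4e-06) against TB cells. The protease list that holds Ccbe1 had 10 of 12 genes tested, of which 4 rose and 1 fell in Met against TB cells, 50% against 9.94% of all genes. In DIF against TB cells 2 rose and 1 fell, 30% against 8.62%, with 5 calls without TB replicate 1. In PIF against TB cells 4 rose and 0 fell, 40% against 14.1%, and these 4 calls, which include Ccbe1 and Adamts14, became 1 without PIF replicate 1, TB replicate 2 or TB replicate 3. Pcsk6, one of the convertases that cut growth factor precursors, fell in Met (adjusted p = 0.0088) and DIF (adjusted p = 0.0018) and rose in PIF (adjusted p = 0.0044) against TB cells. Its means were 0.534 FPKM in Met, 0.313 in DIF, 3.01 in PIF and 1.40 FPKM in TB cells. Adamts3, another gene of the protease list, had 0 reads in all 12 libraries. Adamts2 of the same list averaged 1.03 FPKM in Met, 2.39 in DIF, 0.1035 in PIF and 0.235 FPKM in TB cells. Adamts14 averaged 11.1 FPKM in Met, 12.9 in DIF, 13.65 in PIF and 9.37 FPKM in TB cells. The cutting of VEGF-C itself was not measured. Of the lymphatic receptor gene Flt4 there were 6 reads in all and of Kdr 3. Nrp1, a co-receptor of VEGFs, rose in Met (1.01 ± 0.095, adjusted p = 4.1e-05) and DIF (1.04 ± 0.095, adjusted p = 3.6e-05) against TB cells, and its means were 5.61 FPKM in Met, 5.76 in DIF, 2.23 in PIF and 2.28 FPKM in TB cells. Nrp2, the co-receptor of VEGF-C, was at 1.42 FPKM in Met, 0.881 in DIF, 2.32 in PIF and 0.907 FPKM in TB cells and rose in PIF against TB cells (0.80 ± 0.13, adjusted p = 0.0018). Flt1, a receptor of Pgf and Vegfa, rose in the same comparison (0.96 ± 0.20, adjusted p = 0.0083), at 5.43 FPKM in Met, 3.92 in DIF, 9.51 in PIF and 4.29 FPKM in TB cells.

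**Figure D4:**
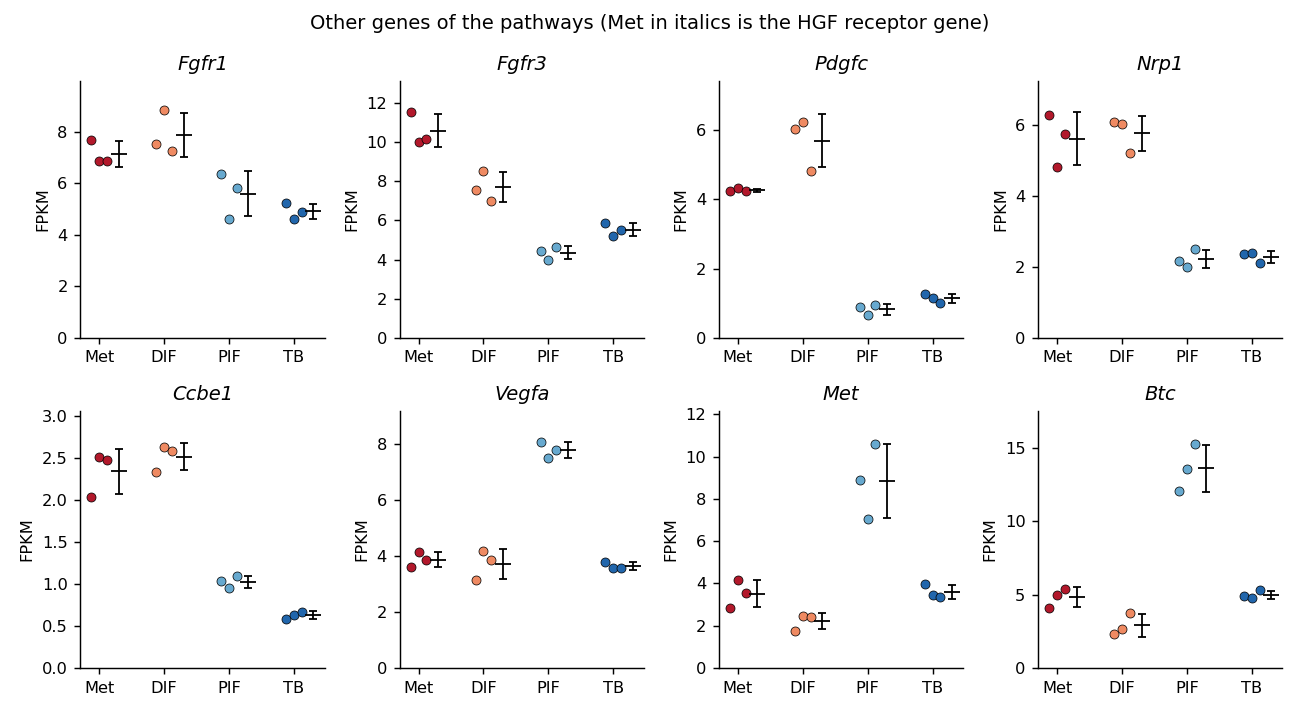
FPKM (vertical axis, from 0) of 8 other genes of the pathways in each library, for Met, DIF, PIF and TB cells, with the group mean and SD (n = 3) beside the points; Met in italics is the HGF receptor gene. Fgfr3, Pdgfc, Nrp1 and Ccbe1 are higher in Met and DIF cells (Nrp1 5.61 and 5.76 FPKM) than in PIF and TB cells (2.23 and 2.28 FPKM), whereas Vegfa, the HGF receptor gene Met and Btc are highest in PIF cells.

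Hgf (ENSMUSG00000028864, chromosome 5, 16758493 to 16825150, plus strand), hepatocyte growth factor, was all but absent, with 7 reads in 3 libraries. Of these, 4 were in 1 Met library, 2 in 1 DIF library, 1 in 1 PIF library and 0 in TB cells. A limit of 3 reads is 0.0227 to 0.0266 FPKM for Hgf. Its receptor gene Met was expressed, with 3.52 ± 0.656 FPKM in Met cells, 2.21 ± 0.389 in DIF, 8.85 ± 1.76 in PIF and 3.59 ± 0.328 FPKM in TB cells. The receptor gene rose in PIF against TB cells (1.09 ± 0.14, adjusted p = 0.00067) and fell by 1.12 in Met cells against PIF cells (adjusted p = 0.00023). Its difference between Met and TB cells was -0.03 ± 0.14 (adjusted p = 0.92). The related receptor Mst1r had 0 reads, where 3 reads would be 0.0326 to 0.0382 FPKM. Plau, the urokinase that can activate HGF, had 13.4 FPKM in Met, 23.4 in DIF, 21.8 in PIF and 11.4 FPKM in TB cells. Its call in PIF against TB cells (0.88 ± 0.21, adjusted p = 0.018) was lost without PIF replicate 1 (0.074) or TB replicate 3 (0.076).

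Hbegf (ENSMUSG00000024486, chromosome 18, 36637980 to 36648858, minus strand), a membrane-anchored EGF family ligand that is shed by proteases, varied as little as Pdgfa. It had 20.7, 22.6 and 21.5 FPKM in the Met libraries and 17.3, 22.1 and 20.5 FPKM in the DIF libraries. The PIF libraries had 18.2, 16.4 and 16.9 FPKM and the TB libraries 18.1, 19.2 and 18.6 FPKM. The Met libraries lay above those of PIF and TB cells, and the DIF libraries overlapped with all groups. The Met mean of 21.6 ± 0.939 FPKM was 1.26 times the PIF mean of 17.1 ± 0.928 FPKM and 1.16 times the TB mean of 18.7 ± 0.579 FPKM.

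Hbegf made up 12.9% of the summed EGF family ligands in Met, 16.2% in DIF, 10.4% in PIF and 13.8% in TB cells. The main ligand was Areg, amphiregulin, with 72.6% in Met, 69.7% in DIF, 69.6% in PIF and 70.0% in TB cells. Of the 6 tested genes of this list, 1 fell and 0 rose in DIF against TB cells, 16.7% against 8.62% of all genes. That call was Btc (adjusted p = 0.012), and it was lost without DIF replicate 2 or TB replicate 3 (adjusted p = 0.055 each). In DIF against PIF cells 1 rose and 4 fell, 83.3% against 18.9% of all genes. Btc, betacellulin, rose in PIF against TB cells (1.28 ± 0.13, adjusted p = 0.00015), at 4.84 FPKM in Met, 2.91 in DIF, 13.6 in PIF and 5.0 FPKM in TB cells. Adam10, a protease that sheds EGF family ligands, rose in Met cells against DIF (0.43 ± 0.054, adjusted p = 0.0009), PIF (0.40 ± 0.054, adjusted p = 0.00028) and TB cells (0.50 ± 0.054, adjusted p = 9.8e-05). Its means were 109.3 ± 2.56 FPKM in Met, 80.8 ± 1.15 in DIF, 82.4 ± 1.54 in PIF and 77.1 ± 4.89 FPKM in TB cells. The EGF receptor gene Egfr had 4 reads in all, and Erbb4 had 0 reads, where 3 reads would be 0.0132 to 0.0155 FPKM. Erbb3, a receptor of neuregulins, was at 55.4 FPKM in Met, 53.7 in DIF, 56.8 in PIF and 61.7 FPKM in TB cells and passed no comparison (F test adjusted p = 0.67). Erbb2 was at 5.41 FPKM in Met, 6.77 in DIF, 4.16 in PIF and 5.30 FPKM in TB cells.

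Over all 11 lists, 71 of the 144 pathway genes could be tested, and 45 of them, 63.4%, passed the F test over the 4 groups, against 24.8% of all genes. In Met against TB cells 17 rose and 5 fell, which is 31.0% against 9.94% of all genes, at a median log2 difference of 0.18 against -0.003. In DIF against TB cells 14 rose and 4 fell, 25.4% against 8.62%. In PIF against TB cells 19 rose and 3 fell, 31.0% against 14.1%, and these 22 calls became 13 without TB replicate 3. In Met against PIF cells 16 rose and 17 fell, 46.5% against 17.6%, and in DIF against PIF cells 19 rose and 17 fell, 50.7% against 18.9%. Met against DIF cells gave the fewest calls, with 7 rising and 3 falling, 14.1% against 3.86%. These 10 calls became 4 without Met replicate 2, 6 without Met replicate 3 and 5 without DIF replicate 1. The lists were picked with earlier results of these data known, so these shares are a description.

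Downstream of the receptors, 13 of 14 listed genes that respond to or dampen receptor tyrosine kinase signalling were tested. Of these, 3 rose and 0 fell in Met against TB cells, 23.1% against 9.94% of all genes. In DIF against TB cells 1 rose and 0 fell, 7.69% against 8.62% of all genes, a share near the background, with 2 calls without PIF replicate 3 or TB replicate 1. In PIF against TB cells 4 rose and 0 fell, 30.8% against 14.1%, and these 4 calls became 2 without TB replicate 2 or TB replicate 3, since those of Dusp5 and Spred1 were lost. Dusp4, an ERK phosphatase, rose against TB cells by 0.44 in Met (adjusted p = 0.0055), by 0.45 in DIF (adjusted p = 0.0066) and by 0.59 in PIF cells (adjusted p = 0.001). Its means were 115.3 FPKM in Met, 115.8 in DIF, 128.6 in PIF and 85.0 FPKM in TB cells. Spred3, an inhibitor of the RAS pathway, rose in PIF against TB cells (0.48 ± 0.072, adjusted p = 0.0014), and Errfi1, a feedback inhibitor of EGF receptors, rose in Met against TB cells (0.35 ± 0.066, adjusted p = 0.0055).

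The genes whose pattern was most like that of Fgf7 were sought among the 10836 protein-coding genes tested. The measure was the root mean square difference between the 4 group means of log2(FPKM + 1) after centring each gene, and the median gene was 0.959 away. This scale understates the change of low genes, and likeness on another scale was not computed. Foxs1, a forkhead transcription factor, was nearest at 0.075, with 3.83 ± 1.15 FPKM in Met, 1.26 ± 0.502 in DIF and 0.142 ± 0.131 FPKM in PIF cells. It was listed at 0 in the TB libraries. Glipr1 (0.164), Fam167a (0.204), Nbl1 (0.210) and Pcp4l1 (0.272) followed. Nbl1, a secreted antagonist of BMPs, was at 4.94 FPKM in Met, 2.89 in DIF, 0.516 in PIF and 0.578 FPKM in TB cells. For Angpt2 the nearest were Cd24a (0.056), Cyp1a1 (0.252) and Bmp2 (0.258), with a median distance of 0.768 over all genes. Cd24a, a surface glycoprotein, had 138.0 ± 11.9 FPKM in Met, 34.0 ± 4.53 in DIF, 47.8 ± 6.92 in PIF and 39.8 ± 1.38 FPKM in TB cells.

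Since FGF7 is known from fibroblasts and angiopoietin 2 from endothelium, markers of other cell types were summed as FPKM per library. The labelled melanoma identity showed in Sox10, at 203 to 269 FPKM, and S100b, at 57.9 to 107 FPKM. The 8 melanocyte and melanoma genes summed to 315 ± 28.4 FPKM in Met, 304 ± 25.0 in DIF, 327 ± 17.7 in PIF and 329 ± 20.1 FPKM in TB cells, nearly all from these 2 genes. Mitf, the regulator of melanocyte genes, was lower in every Met and DIF library than in any PIF or TB library, with 4.26 ± 0.827 FPKM in Met, 4.24 ± 1.17 in DIF, 11.1 ± 2.41 in PIF and 15.2 ± 0.622 FPKM in TB cells. Met and DIF cells, which were higher in Fgf7, were thus lower in Mitf, and its part in the Fgf7 level was not tested. The pigment genes were absent or low and Tyrp1 was at 0. The 8 fibroblast markers summed to 1.40 to 2.27 FPKM in Met, 0.550 to 1.48 in DIF, 0.598 to 0.696 in PIF and 0.293 to 0.381 FPKM in TB cells, highest in Met cells like Fgf7. Of the 8 markers, Col1a1, Thy1, Fap and, at a very low level, Col1a2 were higher in Met and DIF than in PIF and TB cells by their means. Col1a1, a collagen chain, averaged 0.865 FPKM in Met, 0.468 in DIF, 0.0637 in PIF and 0.0981 FPKM in TB cells. Thy1 averaged 0.335 in Met and 0.0546 in DIF cells and was at 0 in all PIF and TB libraries, and Fap averaged 0.216 in Met, 0.157 in DIF, 0.0415 in PIF and 0.0369 FPKM in TB cells. Pdgfra, at 0.207 in Met, 0.159 in DIF, 0.384 in PIF and 0.182 FPKM in TB cells, and Dcn, at 0.050 in Met, 0.0405 in DIF, 0.145 in PIF and 0.0131 FPKM in TB cells, were highest in PIF cells. Col1a2, with 57 reads in all, averaged 0.0279 FPKM in Met, 0.0270 in DIF, 0.0181 in PIF and 0.0122 FPKM in TB cells. It was at 0.0403 FPKM or lower in every library. Lum had 1 read in all, and Pi16 was at 0 in all but the PIF group. The part of these markers' source in the Fgf7 level was not tested. The 8 endothelial markers summed to 0.0515 to 0.177 FPKM in Met, 0.0996 to 0.138 in DIF, 0.144 to 0.208 in PIF and 0.158 to 0.360 FPKM in TB cells. Pecam1, with 15 reads in all, was highest in Met cells like Angpt2, averaging 0.0322 FPKM in Met, 0.00612 in DIF and 0.00590 in PIF cells, and was at 0 in all TB libraries. On group means Vwf carried most of the sum and was lowest in Met cells, at 0.0601 FPKM in Met, 0.0777 in DIF, 0.138 in PIF and 0.263 FPKM in TB cells. Cldn5 was at 0 in all libraries, Kdr, Tie1 and Emcn were at 0 in the Met libraries, and Cdh5 and Tek were at 0.0406 FPKM or lower in every library. The part of these markers' source in the Angpt2 level was not tested.

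**Figure D5:**
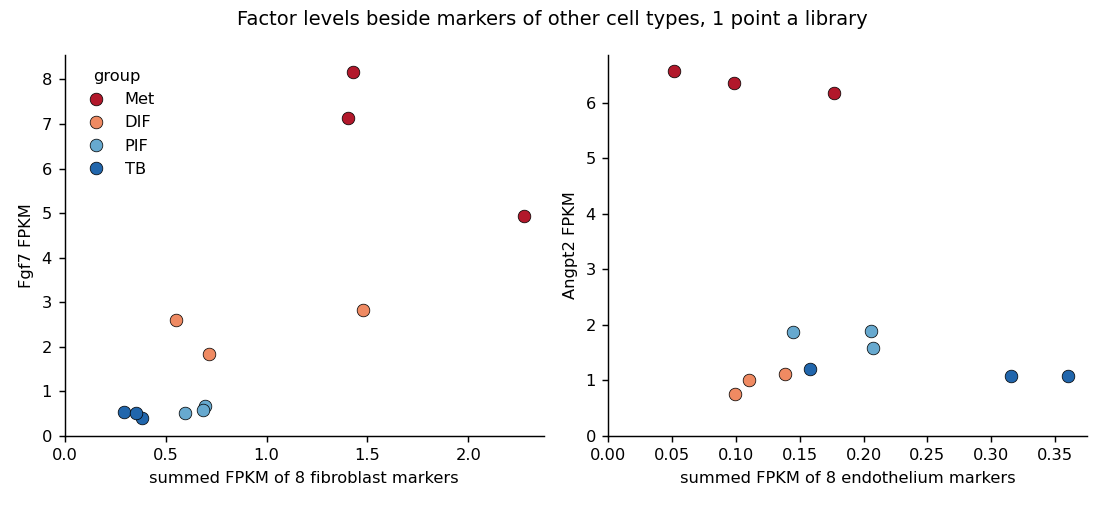
Left, Fgf7 FPKM (vertical axis) against the summed FPKM of 8 fibroblast markers (horizontal axis), and right, Angpt2 FPKM against the summed FPKM of 8 endothelial markers, with 1 point a library coloured by group. The Met libraries lie at 1.40 to 2.27 FPKM of fibroblast markers with the highest Fgf7, and the TB libraries at 0.293 to 0.381 FPKM. On the right the Met libraries lie at 0.0515 to 0.177 FPKM of endothelial markers with Angpt2 between 6.18 and 6.58 FPKM.

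Markers of other cell types were summed in the same way. Platelets carry PDGF-B, and the 6 platelet markers summed to 0.561 FPKM in Met, 0.791 in DIF, 0.217 in PIF and 0.243 FPKM in TB cells, with Gp9, Gp1bb and Treml1 at 0. The group highest in Pdgfb was also highest in this sum. Pf4, platelet factor 4, with 21 reads in all, averaged 0.0757 FPKM in Met, 0.396 in DIF, 0.0258 in PIF and 0.0519 FPKM in TB cells, and so was highest in DIF cells like Pdgfb. Itga2b carried most of the sum in Met, PIF and TB cells, at 0.485 in Met, 0.361 in DIF, 0.174 in PIF and 0.191 FPKM in TB cells. The sum ranged from 0.404 to 1.02 FPKM in the DIF libraries and from 0.510 to 0.648 FPKM in the Met libraries, and its part in the Pdgfb level was not tested. Mural cell markers summed to 1.56 FPKM in Met, 2.13 in DIF, 2.36 in PIF and 0.672 FPKM in TB cells. Their order differed by gene: Rgs5 was highest in PIF cells (2.04 FPKM), Notch3 (1.10), Pdgfrb (0.483) and Des (0.206) in DIF cells and Cspg4 (0.542) in Met cells. Leukocyte markers summed to 1.01 in Met, 0.882 in DIF, 2.16 in PIF and 1.43 FPKM in TB cells, with Cd3e, Adgre1, Itgam and Tyrobp at 0. Nearly all of that sum was Cd68, at 0.943 in Met, 0.770 in DIF, 2.05 in PIF and 1.34 FPKM in TB cells. Keratinocyte markers came to 2.57 FPKM in Met, 2.48 in DIF, 2.35 in PIF and 3.21 FPKM in TB cells, nearly all from Krt10, with Krt5, Krt1, Dsg3 and Trp63 at 0. Lung epithelium markers came to 0.944 in Met, 1.06 in DIF, 0.799 in PIF and 0.659 FPKM in TB cells with Sftpa1 at 0.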

How the data were processed

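RNA of 4599 melanoma cells was sequenced as paired reads of 150 bases in 12 libraries. The tools named in the submitters' processing notes are fastp, HISAT2 2.0.5 and featureCounts 1.5.0-p3. The build, annotation and strand setting behind the table were not given in the sources used here. The table deposited by the authors holds FPKM, from reads per gene, gene length and a scale for each library. Deposited FPKM times gene length came out as whole multiples of 1 step in each library for 100.0% of values, at a tolerance of 0.001, which gave the read numbers (15.5 to 18.4 M per library). Median-ratio size factors on the FPKM were 1.0053 in every library, so the table was already scaled to equal median ratios.

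The 12661 genes with a mean of at least 0.5 FPKM were fitted on log2(FPKM + 1) with limma 3.58.1 (R 4.3.3). The model had 1 mean per group, an intensity trend, no block and 8 residual degrees of freedom shared by the 4 groups. All 6 pairs were compared, two-sided, with Benjamini-Hochberg adjustment over all genes tested and a threshold of 0.05, and a moderated F test covered the 4 groups. The script was tested on simulated data. Members and lists were chosen with earlier results of these data known. Named genes were the members, every receptor gene of the lists, up to 6 tested genes a list with the smallest F test p, and the genes most like Fgf7 (5) or Angpt2 (3); the text names most of these, and Mcph1, Nudt6, Fam227b and 6330403L08Rik because they overlap members. Of 2 rows of 1 list symbol (Nrg1) the one with the higher mean was used. Libraries of a group differed by more than sampling noise (mean chi-square per gene of 3.86 to 21.9), so all 12 counted. Limits of 3 reads cover counting error only.

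Alternatives were a pseudocount of 0.1, no filter, a filter at 2 FPKM, quantile normalization, voom on the rebuilt reads, a replicate block, the spread of the compared groups alone and each library left out.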

Additional observations from a re-analysis of the deposited data

How the results depend on the processing

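Member differences were recomputed under 15 alternatives, which were the pseudocount of 0.1, quantile normalization, voom and leaving out each of the 12 libraries. None reversed except where the groups overlapped: Pdgfa in DIF against TB cells under quantile normalization, and Fgf2 among DIF, PIF and TB cells and Pdgfb in Met against PIF cells (0.04, and -0.01 without PIF replicate 3) with a library left out. Of 136 calls of the named pathway genes, 93 held under each of the 19 alternatives that tested the gene. The filter at 2 FPKM dropped named genes with a lower mean, so their calls could not be lost there. The pathway counts ranged over leaving out each library in turn from 13 to 25 in PIF against TB cells (22 with all libraries; 13 without TB replicate 3) and from 4 to 10 in Met against DIF cells (10 with all; 4 without Met replicate 2, 6 without Met replicate 3, 5 without DIF replicate 1). Among all genes, the count for Met against TB was 793 to 1467 (1259 with all; 793 without TB replicate 3, 800 without TB replicate 2, 810 without Met replicate 3). For DIF against TB it was 589 to 1264 (1091 with all; 589 without DIF replicate 2, 606 without TB replicate 3, 611 without TB replicate 2), and for PIF against TB 958 to 1843 (1785 with all; 1102 without PIF replicate 1, 993 without TB replicate 2, 958 without TB replicate 3). For Met against DIF it was 234 to 595 (489 with all; 234 without Met replicate 3, 257 without Met replicate 2, 277 without DIF replicate 2, 286 without DIF replicate 1). With the spread of the compared groups alone, the counts were 1132 for PIF against TB, 1497 (of 2390) for DIF against PIF and 300 for Met against DIF. Fewer libraries in a fit leave fewer degrees of freedom; the cause was not otherwise tested.

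Differences of low members grew with a pseudocount of 0.1 or voom on the rebuilt reads, since the added 1 weighs less. For Met minus TB, Fgf7 was 2.36 as reported, 3.53 with 0.1 and 3.75 with voom, Angpt2 1.80, 2.41 and 2.5, and Vegfc -0.75, -1.19 and -1.27; for Met minus DIF, Pdgfb was -0.43, -1.04 and -1.23. voom called 1501 genes for Met against TB, 1293 for DIF against TB, 1928 for PIF against TB and 631 for Met against DIF. With the replicate block, 22 pathway genes were called for Met against TB, 21 for DIF against TB, 27 for PIF against TB, 32 for Met against PIF, 38 for DIF against PIF and 10 for Met against DIF, with 47 by the F test. Of 18 correlations between same-numbered libraries, from -0.201 to 0.332, 5 were over 0.1. Differently numbered libraries were not correlated, so these values cannot decide whether the replicate numbers pair the libraries. Depth limits Angptl4, Hgf and Angpt1, and the order of groups for Fgf7 between PIF and TB cells.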
